A study of Mus musculus with 3 samples.

Results

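The 53 genes described here encode the machinery of late G2 phase and mitosis, from cyclin B1 (*Ccnb1*) and its kinase *Cdk1* to the motors, kinetochore proteins and condensins that sort and package the chromosomes. They were taken by gene symbol from a list of mitotic genes, and all 53 had a row among the 23282 gene rows of each library. The libraries came from activated CD4 T cells of C57BL/6 mice (C57BL/6J in the study's methods), isolated from spleen and lymph nodes and cultured for 72 h. Cells of every medium received anti-CD3 and anti-CD28 antibodies, each at 2 µg/mL. Complete medium (CM) is RPMI with ordinary serum. Dialyzed medium (DM) is built on RPMI lacking amino acids, with serum whose nutrients were reduced by dialysis. The study reports that DM still contained methionine. DM+Met is DM plus a further 30 µM methionine. Each medium is represented by 2 libraries, made from 500 ng of total RNA with a kit that reads transcripts near their 3′ ends. The study describes them as independent biological samples, while the labels do not say how the files of a medium differ or how many animals stand behind each, so p-values measure the spread between these libraries only.

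T cells that are stimulated through CD3 and CD28 leave quiescence, grow and then divide repeatedly. The transcripts of mitotic genes are made periodically. They are held down in resting and G1 cells by the DREAM complex, and they are switched on towards mitosis by the MYB-MuvB (MMB) complex together with FOXM1. The complexes act largely through a promoter element named the cell cycle homology region (CHR), which often lies near the transcription start and is accompanied by CCAAT boxes bound by NF-Y. A bulk library cannot tell apart fewer cells in G2 and mitosis from less of these RNAs in each such cell, and this holds for every value below.

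The promoters of the members whose RNA differed most between media are shown here to make these elements visible. RefSeq promoter windows of assembly GRCm38.p6, running from 250 bases before to 50 bases after the transcription start, were found for 44 of the 53 genes. No window was matched for *Aurkb*, *Incenp*, *Kif20a*, *Ccna2*, *Tpx2*, *Cdc25c*, *Ska1*, *Smc4* and *Foxm1*. Printed are the genes with the greatest decrease in DM in their role group on the log2(CPM + 1) scale, as far as a single window was matched, followed by 2 genes that did not pass the test in DM. Sequences run 5′ to 3′ on the strand of the gene, and the capitals mark TTTGAA (the CHR, or TTCAAA when it lies on the other strand) and CCAAT (or ATTGG). *Ccnb1* lies on the minus strand with its window at chr13:100786437-100786736. *Ube2c*, the ubiquitin-conjugating enzyme of the anaphase-promoting complex, lies on the plus strand with its window at chr2:164769679-164769978. *Ttk*, the checkpoint kinase also called Mps1, lies on the plus strand at chr9:83834439-83834738. *Kif22*, a kinesin that pushes chromosome arms away from the spindle poles, lies on the minus strand at chr7:127042371-127042670. *Ncapg*, a condensin I subunit, lies on the plus strand at chr5:45669675-45669974. The windows of *Pttg1* (securin, minus strand, chr11:43425932-43426231) and *Melk* (a mitotic kinase, plus strand, chr4:44300667-44300966) held neither motif. In the GENCODE annotation *Pttg1* spans chr11:43420250-43426251. Its window therefore lies within the gene, downstream of the annotated 5′ end, and does not show the bases before that end.
Ccnb1: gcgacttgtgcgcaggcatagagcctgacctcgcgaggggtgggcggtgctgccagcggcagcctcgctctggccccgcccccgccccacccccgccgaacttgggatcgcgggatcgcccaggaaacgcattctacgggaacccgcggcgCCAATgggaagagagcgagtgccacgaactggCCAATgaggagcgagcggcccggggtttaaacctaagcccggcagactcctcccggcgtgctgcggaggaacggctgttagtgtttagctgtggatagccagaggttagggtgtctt
Ube2c: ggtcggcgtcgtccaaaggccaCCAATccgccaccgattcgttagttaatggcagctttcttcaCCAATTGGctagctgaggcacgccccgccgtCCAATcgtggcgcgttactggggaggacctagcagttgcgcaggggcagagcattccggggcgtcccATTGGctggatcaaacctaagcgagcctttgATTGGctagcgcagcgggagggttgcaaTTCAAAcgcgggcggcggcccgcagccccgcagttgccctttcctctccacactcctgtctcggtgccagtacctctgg
Ttk: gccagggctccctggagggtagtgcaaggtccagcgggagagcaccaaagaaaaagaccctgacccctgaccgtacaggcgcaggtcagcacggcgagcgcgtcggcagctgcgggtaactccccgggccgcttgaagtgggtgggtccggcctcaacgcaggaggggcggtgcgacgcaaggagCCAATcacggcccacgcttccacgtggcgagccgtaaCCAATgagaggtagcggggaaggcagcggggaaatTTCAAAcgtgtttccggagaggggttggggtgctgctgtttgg
Kif22: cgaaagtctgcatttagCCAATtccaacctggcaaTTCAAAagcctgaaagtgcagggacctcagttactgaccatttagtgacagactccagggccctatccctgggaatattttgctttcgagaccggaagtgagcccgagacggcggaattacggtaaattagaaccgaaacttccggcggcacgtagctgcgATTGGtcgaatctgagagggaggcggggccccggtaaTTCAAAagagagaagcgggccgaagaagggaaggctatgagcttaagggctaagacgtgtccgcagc
Ncapg: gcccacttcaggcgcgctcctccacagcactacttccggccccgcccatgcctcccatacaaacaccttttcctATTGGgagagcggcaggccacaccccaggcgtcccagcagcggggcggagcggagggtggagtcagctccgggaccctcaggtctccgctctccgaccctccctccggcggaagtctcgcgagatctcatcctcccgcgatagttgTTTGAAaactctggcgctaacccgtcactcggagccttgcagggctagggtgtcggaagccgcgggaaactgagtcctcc
Pttg1: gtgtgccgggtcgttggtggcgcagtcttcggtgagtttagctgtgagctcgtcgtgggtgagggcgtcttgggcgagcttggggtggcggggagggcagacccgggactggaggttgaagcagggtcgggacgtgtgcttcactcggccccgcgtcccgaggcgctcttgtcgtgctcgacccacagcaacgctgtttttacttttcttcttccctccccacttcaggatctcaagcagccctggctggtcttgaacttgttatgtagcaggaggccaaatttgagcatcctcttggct
Melk: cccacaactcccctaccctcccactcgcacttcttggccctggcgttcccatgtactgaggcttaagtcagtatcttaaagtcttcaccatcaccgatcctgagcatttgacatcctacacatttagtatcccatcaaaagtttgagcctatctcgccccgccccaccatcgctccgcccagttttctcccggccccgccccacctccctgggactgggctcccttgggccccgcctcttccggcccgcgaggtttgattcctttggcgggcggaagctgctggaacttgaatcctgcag

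The *Ccnb1* window held CCAAT boxes 99 and 67 bases before the start and no TTTGAA. In the *Ube2c* window the CHR began 29 bases before the start and 6 CCAAT boxes preceded it, a pair of which overlap in the run CCAATTGG. In *Ttk* the CHR began at base 8 after the start, with CCAAT boxes at 65 and 28 bases before it. *Kif22* had CHR motifs 215 and 17 bases before the start, and *Ncapg* had a single one 30 bases before it. *Ect2*, with 2 windows that are not printed, held CHR motifs in both. Across the 44 genes, TTTGAA on either strand was found in 31 (70.5%), against 17.9% of all 32851 mouse windows of the same length and 14.5% of the 9625 tested genes that had a window. Within 50 bases of the start it was found in 28 of the 44 genes (63.6%), in 4.94% of all windows and in 3.89% of the tested genes. CCAAT was held by 33 of the 44 genes (75%), by 37.4% of windows and by 42.8% of the tested genes. Both motifs were held by 27 (61.4%), 6.95% and 6.04% in the same order. The variant TTCGAA was held by 4 genes (9.09%), 1.56% of windows and 2.44% of the tested genes. A match of letters is a description and not a bound site, and the list was assembled from known mitotic genes.

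**Figure D1:**
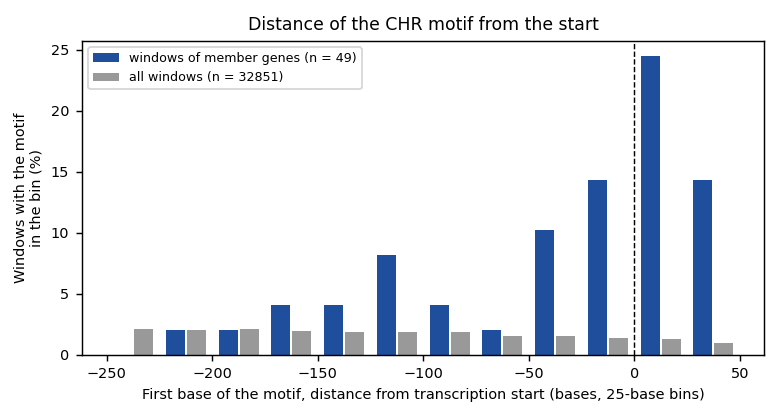
Share of promoter windows (%) in which TTTGAA on either strand begins in each 25-base bin, by distance from the transcription start in bases, for the 49 windows of member genes (blue, several genes having more than 1 window) and all 32851 windows (grey). The member share peaks at 24.5% in the 25 bases after the start, where 1.31% of all windows hold the motif.

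Depth was 8504775 to 12377191 reads per library, recovered from the deposited values as described under the processing. Levels are given as CPM, reads relative to a common library size after TMM scaling, and fold changes as differences of log2(CPM + 1), which understate the change of genes with few reads. The ribosomal RNA precursor Rn45s took 31.0% to 32.9% of reads in CM, 37.2% and 38.3% in DM, but 15.5% and 20.1% in DM+Met. The markers set for CD4 T cells were read in every library, 7 of 7, and summed to 1438 and 1503 CPM in CM, 1735 and 1371 in DM, with 1481 and 1546 in DM+Met. Within this sum, limma called *Cd5* (log2 fold change 1.42, adjusted p = 0.00591) and *Cd3g* (0.72, adjusted p = 0.0349) higher in DM than in CM. It called *Cd28* lower (−0.53, adjusted p = 0.0490), and 4 were not called. The 6 markers of CD8 T and NK cells summed to 74.8 and 77.2 CPM in CM but 33.0 to 42.6 in the other media, a difference that lay in *Cd8a* and *Cd8b1*, while *Klrb1c* went from 0 and 0 in CM to 1.73 and 1.94 in DM (adjusted p = 0.0863) and was called higher in DM+Met against CM (adjusted p = 0.0294). The 6 of B cells summed to 57.6 to 95.3 CPM. The 8 of myeloid cells summed to 38.4 and 30.7 CPM in CM, 62.9 and 47.8 in DM, with 58.0 and 81.5 in DM+Met, and the B cell factor *Pax5* was at 0 in all 6 libraries. Of the markers of other cell types, *Cd8a* was called lower in DM, from 34.3 and 41.0 CPM to 14.5 and 7.86 (log2 fold change −1.72, adjusted p = 0.0323 by limma), and the myeloid marker *Lyz2* was called higher, from 0.342 and 1.92 CPM to 7.85 and 7.50 (2.13, adjusted p = 0.0355). The part of these cells in the results was not tested. The DM libraries differed from each other more than other pairs did among these genes, with 14 of the 53 more than 1 log2 unit apart, against 3 in CM and 4 in DM+Met. Among all tested genes those shares were 22.1% in DM, 20.1% in CM and 7.15% in DM+Met.

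In DM, the mitotic genes were lower than in CM as a nearly complete group. Of the 53, 47 were called lower and none higher, where 9.07% of the 12770 tested genes were called lower and 7.8% higher. Calls here are Benjamini-Hochberg adjusted p-values under 0.05 over all tested genes from a limma fit of the 6 libraries. The median log2 fold change of the 53 genes was −2.71 (quartiles −3.26 and −2.17), beside a median of 0.07 over all tested genes. The decrease exceeded 2 log2 units in 42 genes, 3 units in 18 and 4 units in 4. Both DM libraries lay below both CM libraries for 48 genes, a pattern shown by 26.2% of tested genes. At an unadjusted p under 0.05 there were 47 lower and 0 higher, beside 16% and 16.7% of tested genes. Their summed level was 6423 and 6399 CPM in CM, 1553 and 1953 in DM, with 1733 and 1542 in DM+Met, and without *Smc4* it was 5564 and 5674, 984 and 1033, and 745 and 841 CPM. All 53 passed the filter on low values, and 44 had at least 10 reads in every library. The count was 47 when libraries were scaled by their totals and 46 when those totals left out Rn45s. Without DM library 1 it was 36 and without DM library 2 it was 32, while leaving out a CM library gave 29 (library 1) or 30 (library 2), in fits with 1 library in that arm. The calls of 27 genes were kept under every alternative run, and 20 were lost when some library was left out, among them *Ccnb1*, *Ccna2*, *Aurka*, *Aurkb* and *Foxm1*.

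**Figure D2:**
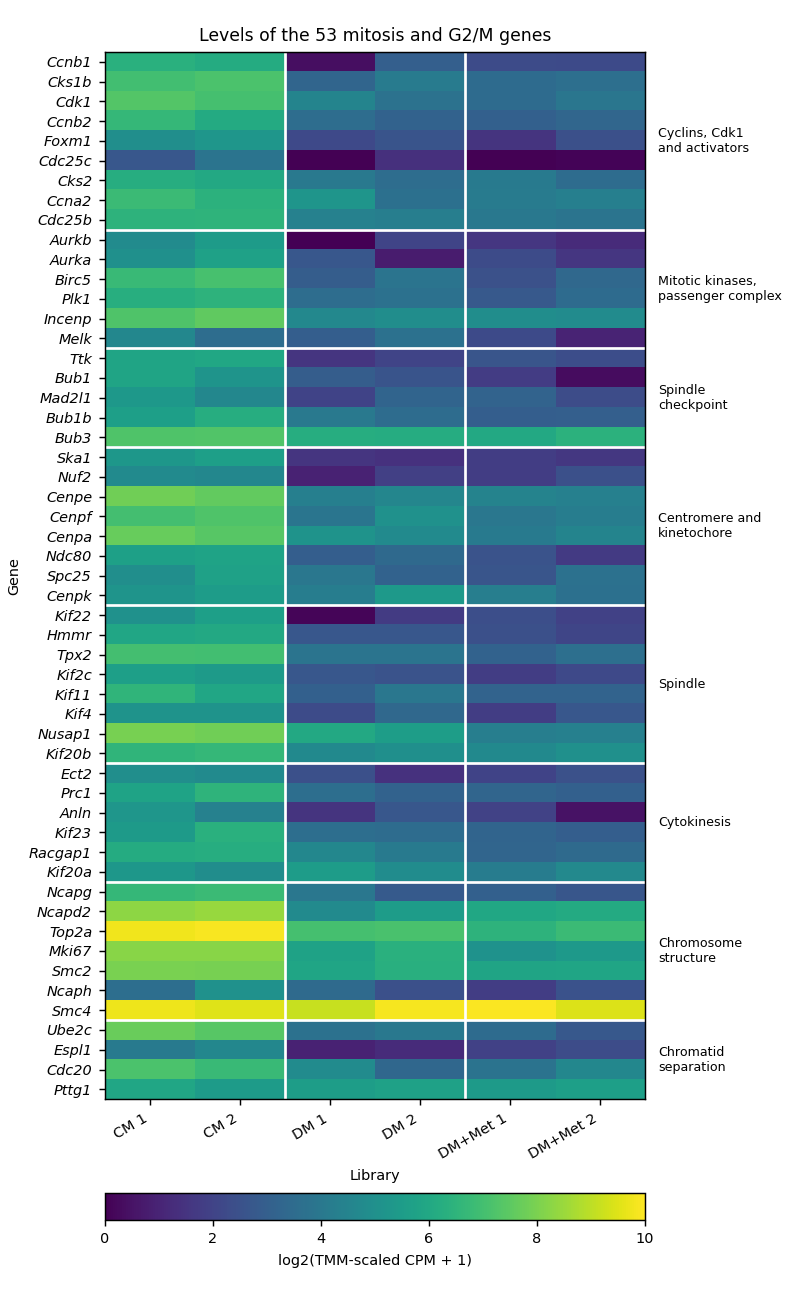
Level of each of the 53 genes (rows, grouped by role and ordered by their change in DM) in the 6 libraries (columns), as log2(TMM-scaled CPM + 1) on a linear colour scale from 0 to 10. The CM columns are brighter in nearly every row, and *Smc4* stays bright in all 6 libraries.

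All 9 genes of the cyclin and Cdk1 group were called lower in DM. *Ccnb1*, the cyclin that with Cdk1 drives entry into mitosis, stood at 80.6 and 69.9 CPM in CM, 0.306 and 7.06 in DM, with 3.94 and 3.70 in DM+Met. The DM libraries lay far below CM but also far from each other, with 3 reads in one and 80 in the other. Its log2 fold change was −4.55 ± 0.74 (SE, adjusted p = 0.00361), the greatest decrease on the log2(CPM + 1) scale, while by mean CPM *Kif22* (33.8-fold), *Ska1*, *Ttk* and *Aurkb* were lower by more than its 20.4-fold. The log2 fold change of *Ccnb1* ranged from −5.86 to −3.24 over the alternatives, the ends being DM library 1 and DM library 2 taken alone. *Ccna2*, cyclin A2, which acts from S phase into early mitosis, had 112 and 85.0 CPM in CM, 35.9 and 11.7 in DM, with 16.8 and 18.9 in DM+Met (−2.19 ± 0.44, adjusted p = 0.00972). *Cdc25b*, a phosphatase that activates Cdk1, had 87.5 and 90.6 CPM in CM, 19.99 and 18.5 in DM, with 15.2 and 13.3 in DM+Met. It showed the smallest decrease of the group, and still its mean CPM in DM was 4.62-fold lower (−2.15 ± 0.27, adjusted p = 0.00127). *Cdk1* itself fell by 3.05 log2 units and the second B-type cyclin *Ccnb2* by 3.04. *Cks1b* and *Cks2*, the small subunits that bind Cdk1, fell by 3.39 and 2.34. *Foxm1*, the transcription factor of the mitotic programme, fell by 2.70. *Cdc25c*, a further phosphatase of Cdk1, had the fewest reads, with 49 and 104 reads in CM, 0 and 18 in DM, with 0 and 1 in DM+Met, and its call (adjusted p = 0.0276) was kept under 6 of 16 alternatives.

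Among the mitotic kinases and the chromosomal passenger complex, 5 of 6 genes were called lower. *Aurkb*, the kinase of the passenger complex, had 27.7 and 43.8 CPM in CM, 0 and 3.18 in DM, with 2.01 and 1.34 in DM+Met. A count of 0 in DM library 1 allows up to 0.306 CPM, the level of 3 reads, which covers counting error only. The log2 fold change of *Aurkb* was −4.13 ± 0.71 (adjusted p = 0.00495). *Incenp*, the scaffold of the complex, had 152 and 187 CPM in CM, 24.3 and 28.7 in DM, with 29.1 and 27.2 in DM+Met, with close replicates in every medium (−2.63 ± 0.23, adjusted p = 2.14e-04). The third subunit measured, survivin (*Birc5*), fell by 3.54 log2 units. *Aurka*, which matures spindle poles, fell by 3.62 and *Plk1*, which acts throughout mitosis, by 2.73. *Melk* did not pass the test, with 23.9 and 10.9 CPM in CM against 6.83 and 12.2 in DM, with 3.77 and 1.01 in DM+Met. The levels of *Melk* in CM and DM overlapped (−0.76 ± 0.63, adjusted p = 0.441).

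All 5 spindle checkpoint genes were called lower, with very different sizes. *Ttk* had 56.7 and 61.1 CPM in CM, 1.94 and 3.18 in DM, with 5.28 and 4.12 in DM+Met (−4.09 ± 0.45, adjusted p = 6.35e-04). *Bub3*, a WD-repeat protein that also works outside the checkpoint, had 149 and 153 CPM in CM, 73.3 and 72.6 in DM, with 64.6 and 85.7 in DM+Met. Its decrease was 2.07-fold, the smallest among the called members (−1.04 ± 0.20, adjusted p = 0.00765), with tight replicates in CM and DM. The kinases *Bub1* and *Bub1b* fell by 2.75 and 2.17 log2 units. *Mad2l1*, whose protein holds the anaphase activator Cdc20, fell by 2.36 (adjusted p = 0.0207), a call kept under 8 of 17 alternatives.

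Of the 8 centromere and kinetochore genes, 7 were called lower. *Cenpa*, the histone variant that marks centromeres, had 204 and 170 CPM in CM, 34.4 and 26.6 in DM, with 16.4 and 21.8 in DM+Met (−2.58 ± 0.26, adjusted p = 3.88e-04). *Ska1*, which couples kinetochores to shortening microtubules, had 37.7 and 48.5 CPM in CM, 1.94 and 1.68 in DM, with 2.51 and 2.10 in DM+Met. It was 23.9-fold lower in DM (−3.96 ± 0.50, adjusted p = 0.00119), on 19 reads in each DM library. The microtubule-binding Ndc80 complex was represented by *Ndc80*, *Nuf2* and *Spc25*, which fell by 2.52, 3.29 and 1.78 log2 units, the call of *Spc25* (adjusted p = 0.0386) being kept under 6 of 17 alternatives. The motor *Cenpe* fell by 3.26 and the coiled-coil protein *Cenpf* by 2.66. *Cenpk*, of the constitutive centromere network, had 35.5 and 45.2 CPM in CM, 17.8 and 40.4 in DM, with 18.4 and 12.0 in DM+Met. One DM library of *Cenpk* lay between the CM values and the other below them (−0.56 ± 0.41, adjusted p = 0.389).

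The 8 spindle genes were all called lower. *Nusap1*, which bundles microtubules near chromosomes, had 243 and 228 CPM in CM, 64.3 and 46.4 in DM, with 18.3 and 19.2 in DM+Met (−2.09 ± 0.23, adjusted p = 5.61e-04 in DM against CM). *Kif22* had 32.6 and 48.5 CPM in CM, 0.102 and 2.30 in DM, with 4.36 and 2.77 in DM+Met (−4.42 ± 0.63, adjusted p = 0.00217). Its DM values rested on 1 and 26 reads. *Kif20b*, a kinesin of the midzone, had 92.4 and 100.3 CPM in CM, 25.8 and 30.6 in DM, with 26.0 and 31.7 in DM+Met, the smallest decrease of the group (−1.74 ± 0.25, adjusted p = 0.00199). The remaining 5, the bipolar motor *Kif11*, the depolymerase *Kif2c*, the chromokinesin *Kif4*, and the assembly factors *Tpx2* and *Hmmr*, fell by 2.30 to 3.28 log2 units.

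Of the 6 cytokinesis genes, 5 were called lower. *Ect2*, the exchange factor that activates RhoA at the cell equator, had 29.7 and 26.6 CPM in CM, 4.39 and 1.68 in DM, with 3.02 and 4.53 in DM+Met (−2.94 ± 0.54, adjusted p = 0.00662). *Racgap1* and *Kif23*, the partners of centralspindlin, fell by 1.84 and 2.33 log2 units, the midzone crosslinker *Prc1* by 2.78 and the ring scaffold *Anln* by 2.72. *Anln* kept its call under 6 of 16 alternatives. *Kif20a* had 37.7 and 29.1 CPM in CM, 44.6 and 28.1 in DM, with 17.2 and 25.1 in DM+Met, with overlapping libraries of CM and DM (0.09 ± 0.34, adjusted p = 0.879). In the GENCODE annotation the 3′ end of *Kif20a* overlaps an exon of *Cdc23*, a subunit of the anaphase-promoting complex, on the opposite strand. The 2 rows held nearly equal reads in every library, 331 and 340 in CM library 1, 227 and 220 in CM library 2, 437 and 437 in DM library 1, 318 and 307 in DM library 2, 205 and 227 in DM+Met library 1 and 299 and 327 in DM+Met library 2, for *Kif20a* and *Cdc23* in turn. How strand was treated in the counting is not given in the sources used here, so the reads of *Kif20a* and *Cdc23* cannot be told apart.

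Such an overlap of 3′ exons within 1000 bases of the end was found for 7 members. *Exosc9*, opposite *Ccna2*, had 240 and 138 CM reads against 255 and 128 in DM, where *Ccna2* had 986 and 664, and 352 and 133. *Elovl1*, opposite *Cdc20*, had 1215 and 900 CM reads against 527 and 537 in DM, where *Cdc20* had 1268 and 846, and 267 and 103. *Lcorl*, opposite *Ncapg*, had 366 and 480 CM reads against 153 and 178 in DM, where *Ncapg* had 874 and 882, and 144 and 70. The rows of *Cdc20* and *Elovl1* were close in CM and apart in DM, those of *Ccna2* and *Exosc9* close in DM library 2, and those of *Ncapg* and *Lcorl* close in DM library 1. Whether reads were shared in these pairs was not tested. *Tnnc2*, opposite *Ube2c*, and *Rccd1*, opposite *Prc1*, held at most 30 reads, and the overlapping genes of *Foxm1* had no row. The row of *Cks1brt*, a retrocopy of *Cks1b*, held at most 15 reads in any library.

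**Figure D3:**
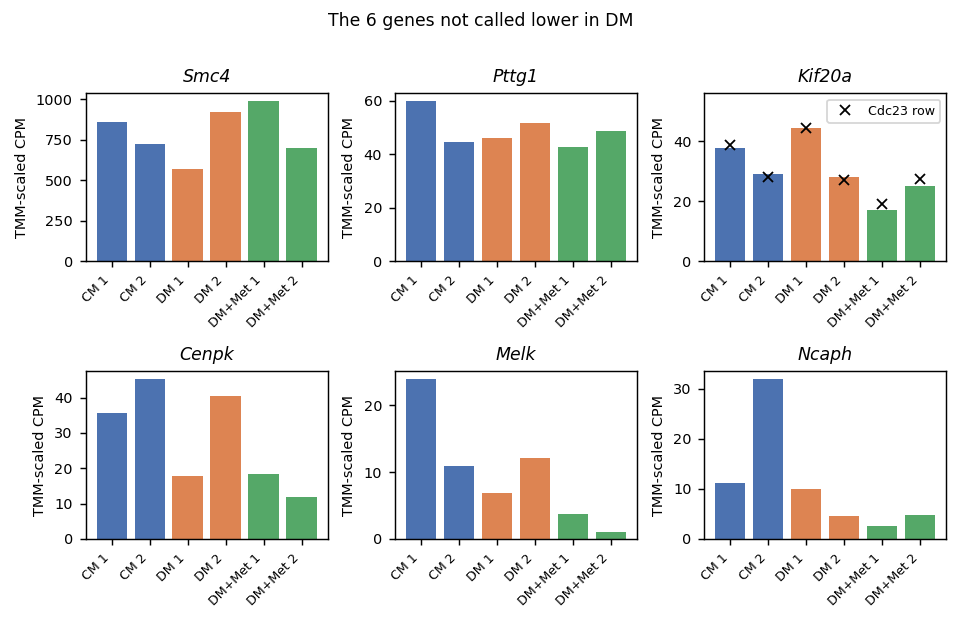
TMM-scaled CPM of the 6 genes not called lower in DM, in each of the 6 libraries (bars, coloured by medium), with the *Cdc23* row as crosses beside *Kif20a*. CM and DM overlap in all but *Ncaph*, and the crosses sit at the tops of the *Kif20a* bars.

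Of the 7 chromosome structure genes, 5 were called lower. *Ncapg* had 99.5 and 113 CPM in CM, 14.7 and 6.18 in DM, with 7.37 and 5.37 in DM+Met (−3.33 ± 0.42, adjusted p = 0.00127). *Ncapd2*, another subunit of condensin I, had 312 and 350 CPM in CM, 26.6 and 45.5 in DM, with 61.6 and 67.9 in DM+Met (−3.21 ± 0.25, adjusted p = 9.73e-05). *Top2a*, which untangles sister chromatids, fell by 2.75 log2 units, from 875 and 956 CPM to 133 and 138. *Mki67*, the Ki-67 protein that coats mitotic chromosomes and is used as a marker of cycling cells, had 297 and 299 CPM in CM, 52.7 and 80.8 in DM, with 33.2 and 41.2 in DM+Met (−2.17 ± 0.23, adjusted p = 5.54e-04). Of the core ATPases of condensin, *Smc2* fell by 1.88 log2 units (adjusted p = 4.57e-04), while *Smc4* had 859 and 725 CPM in CM, 569 and 920 in DM, with 988 and 701 in DM+Met, with overlapping libraries of all 3 media (−0.12 ± 0.24, adjusted p = 0.757). *Ncaph*, the kleisin of condensin I, had 11.2 and 31.9 CPM in CM, 9.99 and 4.50 in DM, with 2.51 and 4.79 in DM+Met. Its DM values lay below CM without passing the test (−1.36 ± 0.63, adjusted p = 0.165).

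Of the 4 genes for separation of the chromatids, 3 were called lower. *Ube2c* had 207 and 168 CPM in CM, 12.4 and 14.9 in DM, with 10.3 and 5.71 in DM+Met, a 13.7-fold lower level in DM (−3.68 ± 0.33, adjusted p = 2.39e-04). The activator *Cdc20* fell by 2.90 log2 units and separase (*Espl1*), the protease that cuts cohesin, by 3.29. *Pttg1*, whose product securin restrains separase until anaphase, had 59.8 and 44.4 CPM in CM, 46.2 and 51.6 in DM, with 42.7 and 48.6 in DM+Met. The *Pttg1* values overlapped across all 3 media (−0.08 ± 0.24, adjusted p = 0.865), and its 95% interval in DM against CM ran from −0.62 to 0.47.

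**Figure D4:**
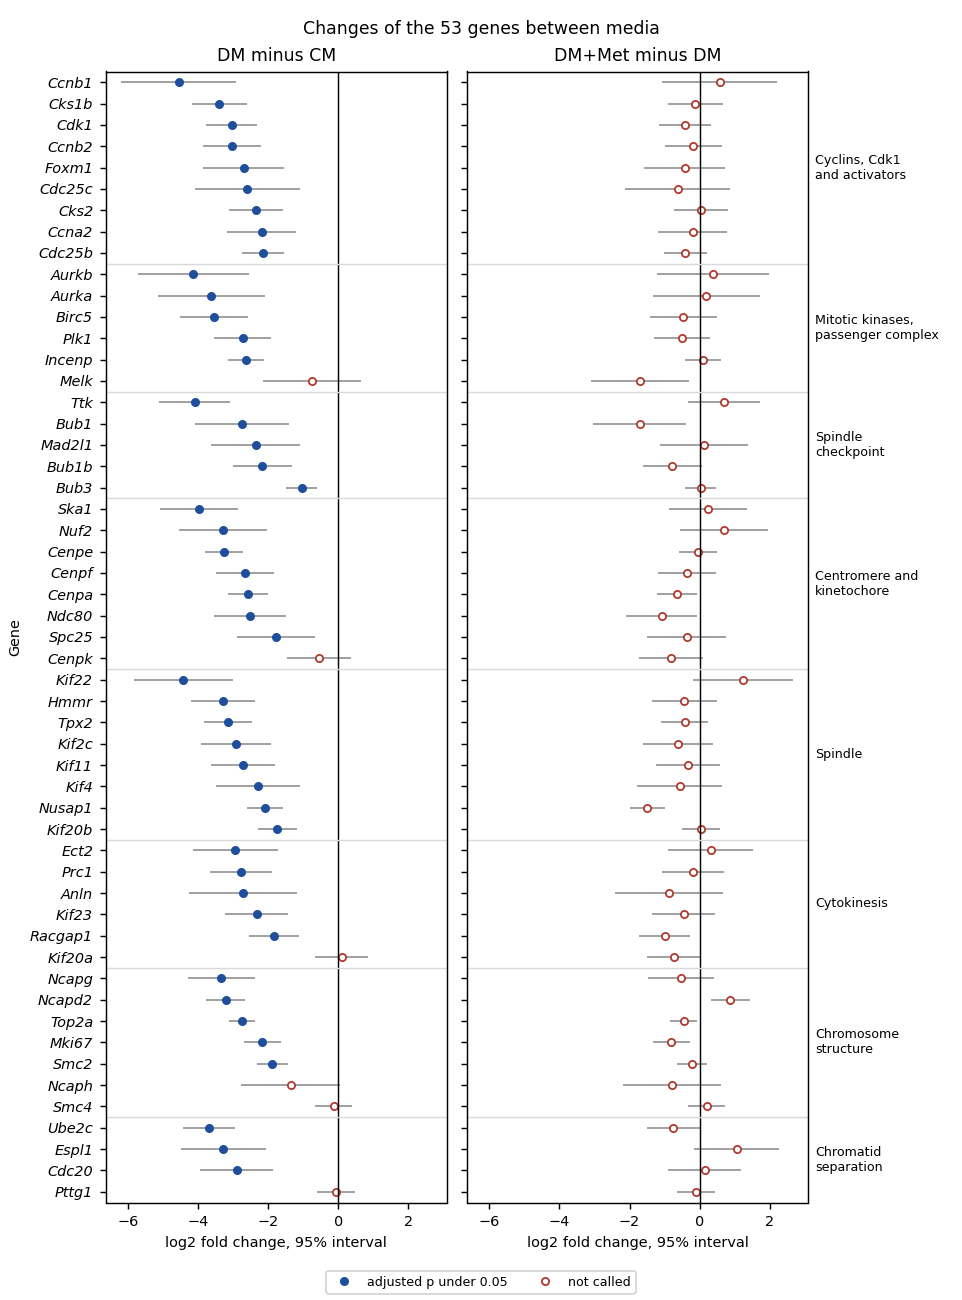
Log2 fold change of each of the 53 genes in DM against CM (left) and DM+Met against DM (right) with its 95% interval from the limma fit, by role group; filled points are called at an adjusted p under 0.05. In DM 47 points are filled and all lie below 0, while on the right no point is filled and 43 intervals span 0.

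The promoter elements were set beside the calls without a test. Of the 40 genes with a window that were called lower in DM, 31 held TTTGAA. The 4 genes with a window that were not called (*Cenpk*, *Melk*, *Ncaph* and *Pttg1*) did not hold it, and 1 of the 4 held CCAAT. Among all tested genes with a window, 14.5% held TTTGAA and 42.8% held CCAAT. Whether the motifs go with the calls was not tested, and 4 genes are few. The window of *Pttg1*, and those of *Kif2c* and *Kif4* among the called genes, lay within the annotated gene. So did a window of *Bub3* and further windows of *Cenpk*, genes that also had a window reaching upstream of the annotated start. Whether these windows cover the promoters in use was not tested. The windows of *Smc4* and *Kif20a* were among those not matched.

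The addition of 30 µM methionine did not bring a called change to any of the 53 genes. In DM+Met against DM, limma called 0 lower and 0 higher, where it called 0.0157% and 0.0392% of all tested genes. The weighted fit limma-voom also called 0 of the 53 in either direction, beside 21 of all tested genes. At an unadjusted p under 0.05 there were 9 lower and 1 higher, beside 5.4% and 4.3% of tested genes. The median log2 fold change was −0.37 (36 genes negative, 17 positive) beside 0.01 over all tested genes. It moved to −0.05 when libraries were scaled by their totals, where the median of all genes was 0.34 and 28 members were negative. Both DM+Met libraries lay below both DM libraries for 18 genes and above for 5, where 20.6% of tested genes lay below. The share of tested genes lying above was not counted, so the 5 genes cannot be read as more or fewer than usual. The 95% interval of the difference lay below an increase of 1 on the log2(CPM + 1) scale for 41 genes and spanned 0 for 43. For genes of few reads an increase of 1 on that scale is more than a doubling of the level, so a doubling of those genes was not excluded.

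*Nusap1* came nearest to a call, with 630 and 526 reads in DM, with 218 and 229 in DM+Met (−1.49 ± 0.23, adjusted p = 0.0675). It was called (adjusted p = 0.0128) where rows needed 10 reads in every library, and its adjusted p ranged up to 1 over the other alternatives. *Mki67* was lower in both DM+Met libraries (−0.80 ± 0.23, adjusted p = 0.347). *Ncapd2* was higher in both, at 61.6 and 67.9 CPM against 26.6 and 45.5 (0.87 ± 0.25, adjusted p = 0.337). The other 4 genes with both DM+Met libraries above DM, *Ttk*, *Kif22*, *Ska1* and *Espl1*, held at most 36 reads in a DM library. The differences of *Ccnb1* and *Aurkb*, 0.57 and 0.38, became −0.74 and −0.65 without DM library 1, in which they had 3 reads and 0.

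In DM+Met against CM, 49 of the 53 genes were called lower and none higher, where 8.36% of tested genes were called lower and 6.92% higher. At an unadjusted p under 0.05 the counts were 50 and 0, beside 15% and 15.3% of tested genes. The median log2 fold change was −3.03, and both DM+Met libraries lay below both CM libraries for 51 genes (28.7% of tested genes). Without DM+Met library 1 or 2 the count was 30 or 29. This comparison shares the CM libraries with DM against CM, so the counts are not independent of each other. *Cenpk*, *Kif20a*, *Pttg1* and *Smc4* were not called. *Melk* and *Ncaph*, not called in DM, were called here at −2.48 ± 0.63 (adjusted p = 0.0266) and −2.15 ± 0.63 (adjusted p = 0.0463), calls kept under 7 and 4 of 17 alternatives. *Cenpk* had an adjusted p of 0.0511 (−1.37 ± 0.41) and was called under 5 of 17 alternatives. On the log2(CPM + 1) scale the most decreased members in DM+Met were *Bub1* (−4.46 ± 0.60) and *Ube2c* (−4.43 ± 0.33). *Bub1* rested on 29 and 3 reads in DM+Met. *Cdc25c*, with 0 and 1 reads there, was too low to be ranked by fold of CPM.

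Other genes of the division cycle were counted in lists chosen for their function. The counts stand beside the 9.07% of all tested genes called lower in DM and the 7.8% called higher. A list of 69 further mitotic genes had 40 members called lower in DM and none higher, with a median of −1.87. Its lowest p-values belonged to *Cdca8* (borealin, the remaining subunit of the passenger complex), from 94.2 and 105 CPM to 9.79 and 7.77 (−3.37 ± 0.34, adjusted p = 3.88e-04), *Spc24* of the Ndc80 complex (−3.41 ± 0.44) and the centromeric cohesin protector *Sgol2a* (−2.79 ± 0.40). Of 16 genes of DNA replication, 15 were called lower, with a median of −1.36, led by *Rrm2*, a subunit of ribonucleotide reductase, from 84.2 and 67.4 CPM to 8.36 and 13.9 (−2.69 ± 0.36, adjusted p = 0.00164). Among 9 genes that restrain entry into mitosis, 3 were called lower and none higher. These were the Cdk inhibitor *Cdkn1a*, from 479 and 625 CPM to 182 and 192 (−1.55 ± 0.16, adjusted p = 4.71e-04), the kinase *Pkmyt1*, which inhibits Cdk1 (−1.22 ± 0.31), and the checkpoint kinase *Chek2* (−1.70 ± 0.49).

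Constitutive parts of the machinery gave smaller medians. Of 15 core genes of the anaphase-promoting complex, 3 were called lower (*Fzr1*, *Anapc5* and *Anapc4*), with a median of −0.21. Of 10 cohesin genes, which hold sister chromatids together, 1 was called higher (*Stag1*, 0.87 ± 0.21, adjusted p = 0.0209) and none lower, with a median of 0.17. None of 13 genes of the DREAM and MMB complexes was called by limma, with 1 lower at an unadjusted p under 0.05 and a median of 0.06. The DREAM pocket protein *Rbl2* had 78.5 and 83.0 CPM in CM and 86.5 and 81.8 in DM. The MMB subunit *Mybl2*, itself a cell cycle gene, had 10.4 and 10.2 CPM in CM and 4.28 and 3.62 in DM without passing the test (−1.19 ± 0.52, adjusted p = 0.143). Kinesins and adaptors that carry cargo outside mitosis, 19 genes, had 2 called lower and 4 higher with a median of 0.55. Among them, *Kif1b* (1.82 ± 0.26) and *Kifap3* (2.16 ± 0.52) were higher and *Kif3a* (−1.38 ± 0.29) lower. At an unadjusted p under 0.05 by limma, 5 genes of the anaphase-promoting complex were lower and 0 higher. The counts were 2 and 3 for cohesin and 2 and 6 for these kinesins, beside 16% and 16.7% of tested genes. In DM+Met against DM limma called no gene of these 7 lists, where it called 0.0157% of all tested genes lower and 0.0392% higher. At an unadjusted p under 0.05, 7 of the further mitotic genes were lower and 0 higher. The interphase kinesins had 3 lower and 1 higher, beside 5.4% and 4.3% of tested genes.

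**Figure D5:**
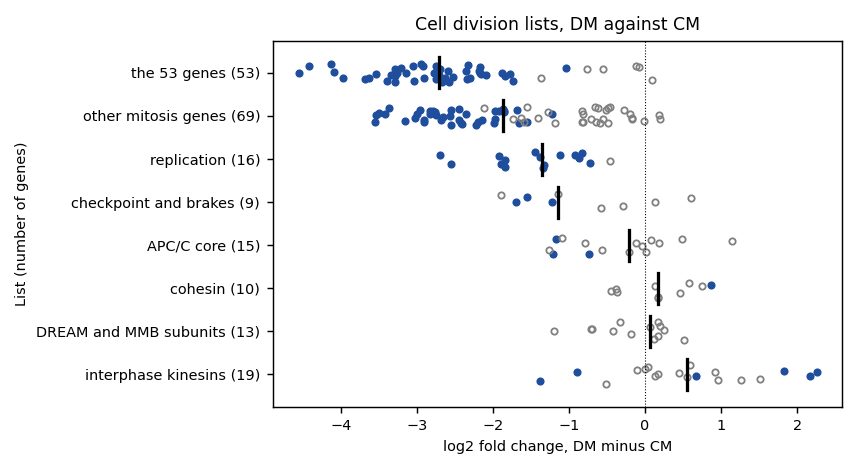
Log2 fold change in DM against CM for each gene of the 53 and of 7 further lists (points, with vertical jitter), filled when called at an adjusted p under 0.05, with a black bar at the median of each list. The medians run from −2.71 for the 53 genes and −1.87 for other mitotic genes to 0.55 for the interphase kinesins.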

How the data were processed

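RNA from cultures in 3 media was sequenced from 3′ ends (Lexogen QuantSeq kit), with 2 libraries for each of CM, DM and DM+Met. Each deposited value is a log2 of TMM-scaled CPM plus 1, to 3 decimals, as the authors computed it. Base and offset were derived from the data, which on the linear scale lay on equal steps in each library, and these steps gave back the reads (at least 99.9% of values up to 300 reads lay within 0.1 of a whole number). The submitters' processing notes name Bowtie2, bedtools and build mm10. Annotation and strand are not given in the sources used here. Libraries of a medium differed by more than counting error (chi-square per degree of freedom 18.2 to 35.9 over genes with at least 20 reads in a pair). Deviations of libraries with the same number were nearly uncorrelated between media (−0.03 to 0.005). The labels do not say whether such libraries shared an animal or a batch, and these correlations cannot show it.

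The deposited log2 values were fitted in limma 3.58.1 (R 4.3.3, lmFit, then eBayes with its variance trend over intensity) over all 6 libraries without covariates, with 3 residual and 6.87 prior degrees of freedom. Tests were two-sided, adjusted over the 12770 rows that reached 0.946 CPM (10 reads at the median depth) in 2 libraries and 15 reads in all. With 2 libraries against 2, an exact permutation test of a single gene cannot go below p = 0.333, so none is given. A floor of 3 reads covers counting error only. Alternatives were other scalings, filters, pseudocounts and limma settings, a replicate block, and leaving out each library.

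The members and lists were chosen with earlier results of these data known. Values in every library are given for the member of each role group with the highest mean level, the greatest and the smallest decrease, for the 3 members with the lowest p in DM+Met against DM, and for at most 3 genes of any other list. *Top2a*, *Cdc20*, *Cdc25c* and *Rbl2* were named with values after these had been seen, and partners of overlapping genes were named for their position. Gene ends and overlaps came from GENCODE on GRCm38, to which mm10 corresponds. Markers were set for CD4 T cells, CD8 T and NK cells, B cells and myeloid cells.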

Additional observations from a re-analysis of the deposited data

How the results depend on the processing

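The decrease of the group relative to CM was kept, in both other media, under every alternative, and no member was called higher in any. Among the 53 genes, other scalings, filters, pseudocounts and limma settings gave 38 to 47 called lower in DM. Leaving out any library gave fewer calls than the main fit, and the cause of this loss was not tested. Where an arm kept 1 library, that library was assumed to vary like the others. The 38 came where 10 reads were required in every library, a filter that left 44 of the 53 genes in the test. The same filter gave the 41 for DM+Met against CM stated next. Against CM, DM+Met had 41 to 50 called lower, and 29 to 45 when a library was left out. For DM+Met against DM, 1 member (*Nusap1*) was called where 10 reads were required in every library and 0 under the other alternatives. Over all tested genes, DM against CM had 541 to 2215 calls (2154 as reported), DM+Met against DM had 0 to 55 (7), and DM+Met against CM had 268 to 2701 (1952). With the replicate block, 47, 0 and 50 members were called lower in the 3 comparisons. Whether the numbers pair the libraries is not known, so this is not read as a paired test.

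The median log2 fold change of the 53 genes in DM against CM was −2.67 with library totals, −2.61 with totals without Rn45s, −2.82 with a pseudocount of 0.1 and −2.15 with 5, and −2.77 to −2.65 when a library was left out. In DM+Met against DM it was −0.046 with library totals, −0.24 with a pseudocount of 5 and −0.42 to −0.21 when a library was left out. Against CM in DM+Met it was −2.65 and −2.93 with the totals, −3.15 and −2.46 with the pseudocounts, and −3.16 to −2.94 when a library was left out.

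Over the alternatives, 4 members changed sign in DM against CM, 24 in DM+Met against DM and 2 in DM+Met against CM, none of them called in that comparison. Those among the genes given with values in every library follow. Between DM and CM, totals without Rn45s gave 0.033 for *Smc4* and 0.079 for *Pttg1*. When a library was left out, *Smc4* ran from −0.47 to 0.22, *Pttg1* from −0.29 to 0.13, *Cenpk* from −1.12 to 0.013 and *Kif20a* from −0.23 to 0.42. Between DM+Met and DM, library totals gave 0.14 for *Ccna2* and 0.26 for *Pttg1*, and totals without Rn45s gave −0.0076 for *Bub3* and −0.0049 for *Kif20b*. With a library left out, the range was −0.14 to 0.55 for *Smc4*, −1.10 to 0.025 for *Ncapg*, −0.97 to 0.56 for *Ccna2*, −0.74 to 1.88 for *Ccnb1*, −0.028 to 0.20 for *Incenp*, −0.65 to 1.41 for *Aurkb*, −0.17 to 0.23 for *Bub3*, −0.11 to 0.17 for *Kif20b* and −0.19 to 0.82 for *Ect2*. Between DM+Met and CM, *Pttg1* was at 0.21 with library totals. With a library left out, *Pttg1* ran from −0.38 to 0.036 and *Smc4* from −0.17 to 0.32. The cause of these shifts was not tested. With 2 libraries per medium, single genes of few reads, such as *Cdc25c* or *Kif22*, are known only roughly.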
